A study of Mus musculus with 18 samples.

Results

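The 35 DNA replication genes described here encode the proteins that copy the genome in S phase and those that supply its nucleotides. They were chosen by name, as rows of a raw count table of 24537 gene symbols, with no threshold on a measured value, though with earlier results of these data known. All 35 were in the table and all 35 passed the filter on low counts, among 11651 genes tested. The libraries came from mouse CD8+ T cells, the lymphocytes that kill infected or transformed cells, and the study asked how lithocholic acid (LCA), a secondary bile acid, acts on them with and without Nur77, the nuclear receptor encoded by Nr4a1. All groups started as naive CD8+ T cells, were given a CRISPR ribonucleoprotein with a synthetic guide, were then stimulated with antibodies to CD3 and CD28, and were cultured overnight before RNA was taken for ultra-low input cDNA libraries. The 3 groups labelled KO received a guide kit against Nr4a1 and no LCA (control), 10 µM LCA (LCA10) or 50 µM LCA (LCA50). The 3 groups labelled WT received a scrambled guide and the same treatments. Each of the 6 groups held 3 libraries, 18 in all. The labels give no strain, age or vehicle, and do not say whether the libraries of a group came from separate mice or cultures, so the error behind each p-value is that between libraries, part or all of which may be technical. The KO libraries hold a guide-treated population and not a clone. Log2 fold changes (± standard error, SE) come from edgeR's quasi-likelihood test of all genes, and a gene passed, or was called, where its Benjamini-Hochberg adjusted p was under 0.05. Nr4a1 had 36 to 71 counts per KO library and 29 to 84 per WT library, and its log2 fold change for KO against WT over all treatments was -0.16 ± 0.19 (SE, adjusted p = 0.789). Transcript counts therefore do not check the KO label, and "KO" below is the label.

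Replication begins when the origin recognition complex marks origins and, with the loaders encoded by Cdc6 and Cdt1, places double rings of the helicase MCM2-7 on DNA. Cdc45 and the GINS complex turn those rings into moving helicases, DNA polymerases alpha, delta and epsilon copy the strands around the sliding clamp PCNA, and ribonucleotide reductase and thymidylate synthase make deoxynucleotides. In T cells these genes are switched on after stimulation, through E2F transcription factors, as resting cells enter the cell cycle. All cells here had been stimulated, so the groups differ in LCA and guide, not in stimulation.

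Library totals ran from 4113713 to 5945518 counts, and the 35 genes together took 0.878 to 0.968% of them. No copies were found among 18 pairs of libraries of a group. The CD8 T cell marker list, with 7 of its 8 genes in the table and none at 0, summed to between 3568 and 4774 CPM, the counts of a gene scaled to the library total. The CD4 list of 4 genes reached at most 36.2 CPM. Of these, Foxp3, with 41 to 88 counts per library, and Zbtb7b, with 1 to 84, passed the filter on low counts. Cd4 itself did not pass, and was at 0 in all 3 libraries of KO control and of WT LCA10. The B cell list, with 5 genes in the table, summed to 4.75 to 11.9 CPM. Of these only Cd79b passed the filter on low counts, with 16 to 55 counts per library. Pax5, another of the list, was at 0 in all 3 libraries of 4 of the 6 groups. The myeloid list summed to 14.1 to 28.6 CPM in KO libraries and 36.5 to 69.3 CPM in WT libraries, and the red cell and platelet list to 0.754 to 21.9 CPM in KO libraries and 3.32 to 54.7 CPM in WT libraries. The part of these cells in the results was not tested. KO LCA50 library 1 stood apart, with 7 of the 35 genes above their mean over all libraries, against 13 to 26 in the other 17 libraries. WT LCA50 library 3 stood apart in another way. It had the highest summed level, 223 CPM, of 1470 odorant, pheromone and trace amine receptor genes that failed the filter on low counts. That sum is a measure of reads from genes a T cell does not use. KO LCA50 library 1 had 164 CPM. In WT this sum was 121 to 223 CPM at LCA50 and 50.4 to 108 CPM in control, without overlap. In KO it was 47.2 to 164 CPM at LCA50 and 94.0 to 113 CPM in control. So in WT the receptor sum and LCA50 cannot be told apart.

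Promoter windows are shown for 5 genes, because many replication genes are known E2F targets and because these 5 of the 8 genes that passed at LCA50 differ in whether their windows hold an E2F word. RefSeq windows on GRCm38.p6, from 250 bases before to 50 bases after the start of transcription, were present for 27 of the 35 genes. The words searched on both strands were TTTCCCGC, TTTGGCGC, TTTCGCGC and TTTGCCGC. Some genes have several windows, so genes with at least 1 match were counted. At least 1 E2F word was found for 13 of the 27 genes (48.1%), against 4.94% of 9005 tested genes with a window and 2.6% of all 27025 genes with a window. By window, 13 of 32 windows of these genes (40.6%) and 2.26% of all 32851 windows held a word. The word CCAAT, on either strand, was found for 18 of the 27 genes (66.7%), against 43.2% of tested genes with a window, and 1 E2F word overlapped it. Below, the capitals mark E2F words, and each sequence runs 5′ to 3′ on the strand of its gene. The Orc1 window is chr4:108579204-108579503 on the plus strand, with the word starting 27 bases before the start. The Mcm5 window is chr8:75109259-75109558 on the plus strand, where overlapping words start 153 and 149 bases before the start. The Pold1 window is chr7:44548766-44549065 on the minus strand, with its word 40 bases after the start. The Mcm3 window is chr1:20820263-20820562 on the minus strand, with words 20 and 39 bases after the start. The Rrm1 window is chr7:102441445-102441744 on the plus strand and holds none of the 4 words.
Orc1: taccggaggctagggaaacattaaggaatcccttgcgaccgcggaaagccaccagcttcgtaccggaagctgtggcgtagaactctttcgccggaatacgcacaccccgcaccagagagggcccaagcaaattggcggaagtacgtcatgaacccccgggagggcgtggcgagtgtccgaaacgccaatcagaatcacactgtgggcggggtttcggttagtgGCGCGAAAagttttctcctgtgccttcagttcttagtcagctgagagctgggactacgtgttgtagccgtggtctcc
Mcm5: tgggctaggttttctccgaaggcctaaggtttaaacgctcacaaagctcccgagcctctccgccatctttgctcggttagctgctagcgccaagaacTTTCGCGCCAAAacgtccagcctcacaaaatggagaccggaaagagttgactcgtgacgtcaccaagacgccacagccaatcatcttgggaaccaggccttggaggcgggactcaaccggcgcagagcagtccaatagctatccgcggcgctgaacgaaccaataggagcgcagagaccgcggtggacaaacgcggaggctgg
Pold1: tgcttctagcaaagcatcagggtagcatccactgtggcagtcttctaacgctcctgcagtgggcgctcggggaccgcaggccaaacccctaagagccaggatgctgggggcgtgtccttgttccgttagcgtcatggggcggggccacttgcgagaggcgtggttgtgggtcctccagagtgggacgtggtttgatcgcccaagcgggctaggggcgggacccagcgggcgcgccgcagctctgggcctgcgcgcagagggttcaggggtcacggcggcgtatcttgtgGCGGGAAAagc
Mcm3: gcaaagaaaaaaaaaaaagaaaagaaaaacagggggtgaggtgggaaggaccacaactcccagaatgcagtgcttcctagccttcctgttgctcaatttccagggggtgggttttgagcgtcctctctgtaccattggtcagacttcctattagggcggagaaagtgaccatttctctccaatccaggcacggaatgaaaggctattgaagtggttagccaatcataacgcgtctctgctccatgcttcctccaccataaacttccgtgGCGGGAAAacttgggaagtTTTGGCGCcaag
Rrm1: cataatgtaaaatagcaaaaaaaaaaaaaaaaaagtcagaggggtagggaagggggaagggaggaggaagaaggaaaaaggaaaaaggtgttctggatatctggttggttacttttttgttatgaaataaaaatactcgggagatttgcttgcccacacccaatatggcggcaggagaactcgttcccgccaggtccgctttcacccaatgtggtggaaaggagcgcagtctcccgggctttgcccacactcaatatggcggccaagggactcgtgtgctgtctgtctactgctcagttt
The windows of Tyms, Fen1 and Rfc1 held none of the 4 words either. A word in a window is a match of letters, not a measured site.

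The 35 genes kept nearly the same levels in all 6 groups. For LCA50 against control, averaged over both guides in 1 model of all libraries, 8 of 35 genes (22.9%) passed the test, 3 of them higher and 5 lower. Over all genes tested, 16.5% passed (7.86% higher and 8.66% lower), and among the 6217 genes whose mean CPM lay in the range of the 35 genes, 21.3% passed, so the share is near the background. The 3 that rose were Orc1, Pold1 and Mcm5. The 5 that fell were Rrm1, Tyms, Mcm3, Fen1 and Rfc1. The median log2 fold change of the 35 was -0.08, against 0.01 over all genes tested. The 95% interval of the fold change lay within 1.5-fold either way for 34 of the 35, all but Orc1, and within 1.25-fold for 32. Marker sums moved with LCA50 as well. The CD8 list summed to 3568 to 4454 CPM in KO LCA50 against 4550 to 4599 CPM in KO control, and to 3920 to 4492 CPM in WT LCA50 against 4692 to 4774 CPM in WT control. The list of 5 natural killer cell genes, of which only Eomes, a gene that activated CD8 T cells also express, passed the filter on low counts, summed to 102 to 140 CPM in KO LCA50 against 78.1 to 91.1 CPM in KO control, and to 133 to 157 CPM in WT LCA50 against 88.7 to 99.1 CPM in WT control. Neither sum overlapped between LCA50 and control in either guide. The CD4 list was also higher at LCA50 without overlap. It was 18.62 to 36.2 CPM in KO LCA50 against 14.3 to 18.59 CPM in KO control. In WT it was 20.69 to 25.7 CPM at LCA50 against 12.6 to 17.97 CPM in control. The B cell list was lower in KO LCA50, at 4.75 to 5.72 CPM against 8.099 to 11.5 CPM in KO control, and overlapped in WT. The myeloid list and the red cell and platelet list overlapped in both guides. At LCA10 the natural killer list also lay above control without overlap, at 117 to 129 CPM in KO and 122 to 144 CPM in WT. The CD8 list at LCA10 was 4120 to 4497 CPM in KO, below control. In WT it was 4356 to 4768 CPM, overlapping control. The part of these sums in the results was not tested. In bulk RNA, fewer cells in S phase and less RNA per cell cannot be told apart. With the receptor sum as a covariate 5 genes passed, and without KO LCA50 library 1 and WT LCA50 library 3 together 5 passed; both times these were Orc1, Pold1 and Mcm5 higher and Rrm1 and Rfc1 lower. The same comparison gave 5 without KO control library 1 or without WT LCA50 library 3, and 4 without WT LCA50 library 2. The shares of all genes called in these fits are not given here, so the drops are not shown to be particular to the 35 genes.

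**Figure D1:**
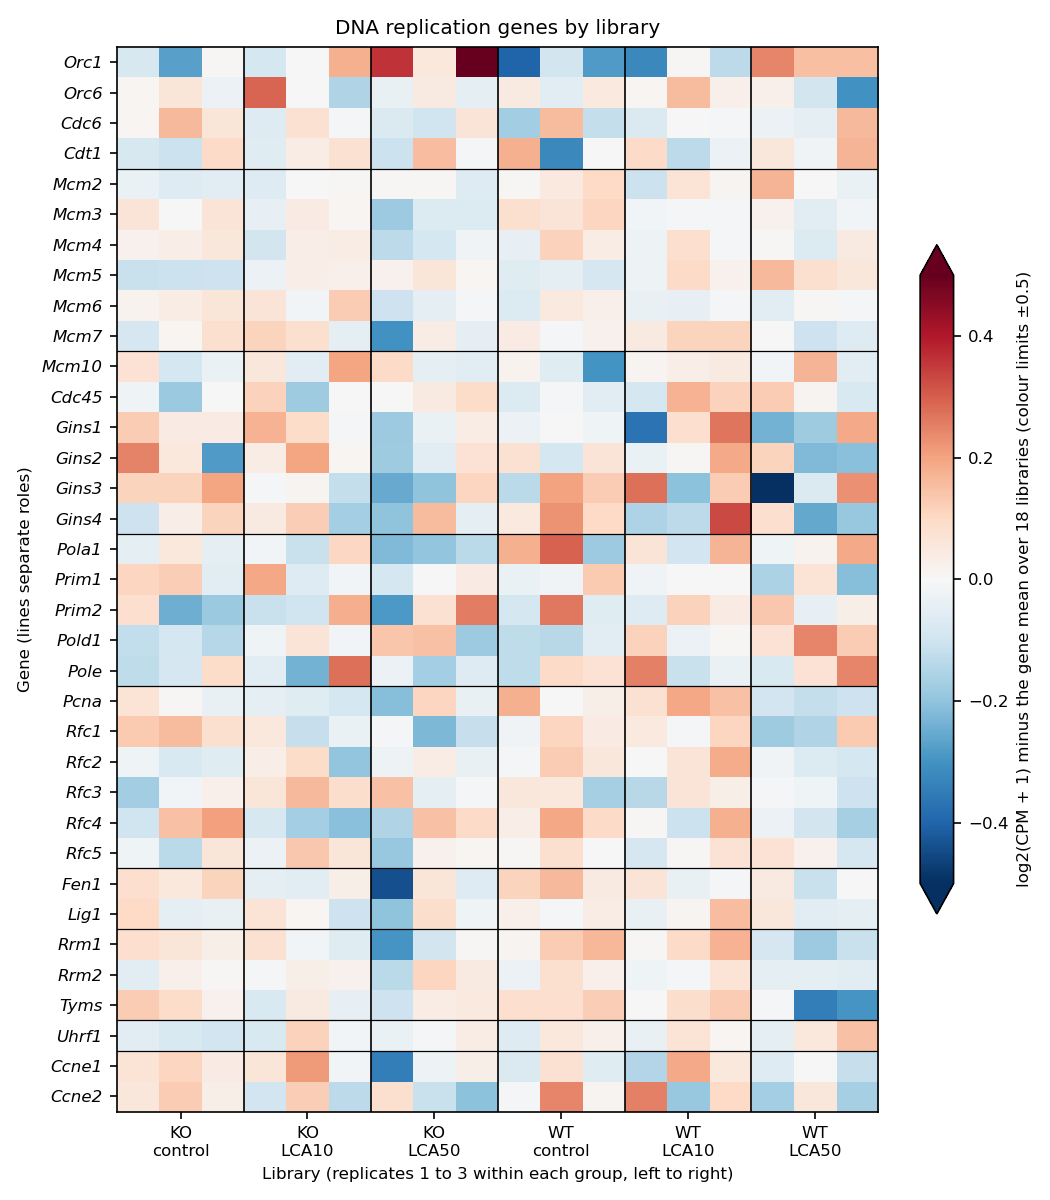
Each row is 1 of the 35 DNA replication genes, ordered by role, and each column 1 of the 18 libraries. Colour gives log2(CPM + 1) minus the mean of that gene over the libraries, with colour limits at ±0.5. Most rows stay pale, Orc1 darkens in the LCA50 libraries, and KO LCA50 library 1 has 7 genes above their mean.

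Within each guide fewer genes passed. In KO cells, LCA50 against control called 1 of 35 (Orc1, higher), where 6.35% of all genes tested passed (2.93% higher and 3.42% lower). In WT cells it called 4 of 35, Orc1 and Pold1 higher and Tyms and Rrm1 lower, where 8.58% of all genes tested passed (3.66% higher and 4.93% lower). In KO cells none of the 35 passed without KO control library 1, KO control library 2 or KO LCA50 library 1, and 2 passed without KO LCA50 library 2 or library 3. In WT cells none passed without WT control library 3, WT LCA50 library 2 or WT LCA50 library 3, and 2 passed without WT control library 1 or library 2. For these fits too, the share of all genes called is not given here. No library is shared between the comparisons of the guides. At LCA50, 7 genes were higher than control in both guides, 21 were lower in both and 7 differed in sign, and 26 of 35 had log2 fold changes under 0.2 in size in both. The libraries of LCA50 and control did not overlap in either guide for Orc1 and Mcm5 (higher) and Mcm3 and Rrm1 (lower). How many of all genes tested agreed in sign, or lacked overlap, in both guides was not counted. By guide, 49.2% of all genes tested were lower at LCA50 in KO and 49% in WT. In KO cells 3 genes were without overlap on the higher side and 9 on the lower side, where 11.5% and 11.9% of all genes tested were. In WT cells these were 3 and 8 genes, where 13.1% and 13.7% of all genes tested were. Over both guides together, the 6 LCA50 libraries lay apart from the 6 control libraries for 2 genes on the higher side (Orc1 and Mcm5) and 1 on the lower side (Rrm1), where 2.66% and 3.55% of all genes tested did. A test of whether the LCA50 response differed between KO and WT called none of the 35 and 0% of all genes tested, with none of the 35 at an unadjusted p under 0.05. The interval of that difference lay within 1.5-fold for all 35 and within 1.25-fold for 15. The share of all genes tested at an unadjusted p under 0.05 was not counted.

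**Figure D2:**
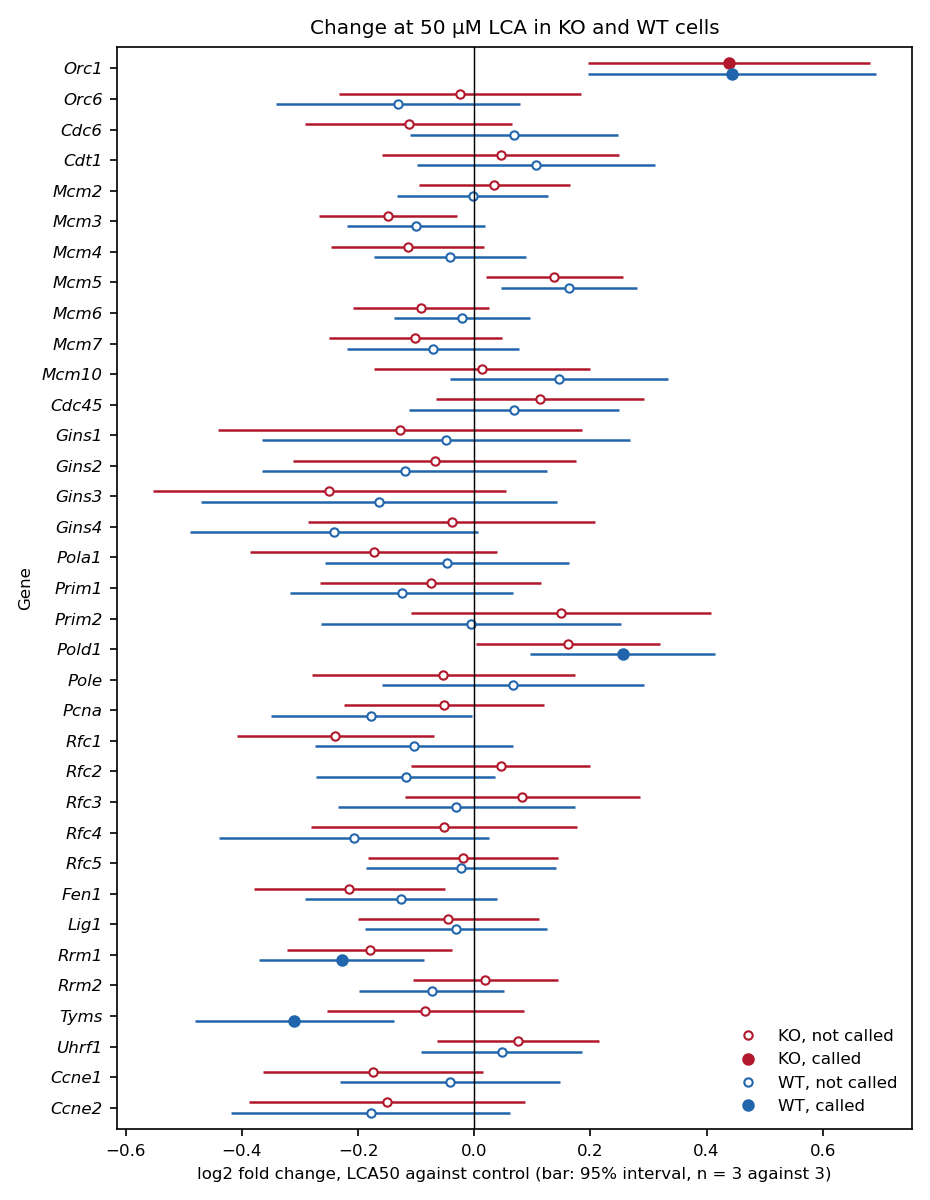
Log2 fold change of LCA50 against control with its 95% interval for each of the 35 genes, KO (red) above WT (blue), filled where the adjusted p was under 0.05. Orc1 is filled in both guides, and Pold1, Rrm1 and Tyms in WT alone; a fill in 1 guide is no test of a difference between the guides.

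Orc1, the large ATPase subunit of the origin recognition complex, gave the largest change of the 35. It lies at chr4:108579423-108614833 on the plus strand (GRCm38). KO libraries had 64.6, 56.4 and 68.5 CPM in control, 64.1, 68.2 and 77.4 CPM at LCA10, and 88.0, 70.9 and 98.2 CPM at LCA50. WT libraries had 51.4, 63.9 and 55.8 CPM in control, 54.3, 68.6 and 62.3 CPM at LCA10, and 81.1, 75.9 and 75.9 CPM at LCA50. All 6 LCA50 libraries lay above all 6 control libraries, and the LCA10 libraries overlapped both. The log2 fold change of LCA50 against control was 0.44 ± 0.09 averaged over guides, or 1.36-fold (adjusted p = 2.97e-04). It was 0.44 ± 0.12 in KO (adjusted p = 0.0209) and 0.44 ± 0.12 in WT (adjusted p = 0.0176). The averaged call held in all 25 other settings tried. The call in KO was lost without KO control library 1 or 2 or KO LCA50 library 1 or 3, and the call in WT without WT control library 1 or 3 or any 1 WT LCA50 library. The other licensing genes did not pass in either guide. Cdc6, a loader of the helicase, gave log2 fold changes of -0.11 ± 0.09 in KO and 0.07 ± 0.09 in WT. Cdt1, its partner, gave 0.05 ± 0.10 in KO and 0.11 ± 0.10 in WT. Orc6, the smallest subunit of the complex, gave -0.02 ± 0.10 in KO and -0.13 ± 0.10 in WT. So of the 4 licensing genes, Orc1 was the 1 that passed.

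**Figure D3:**
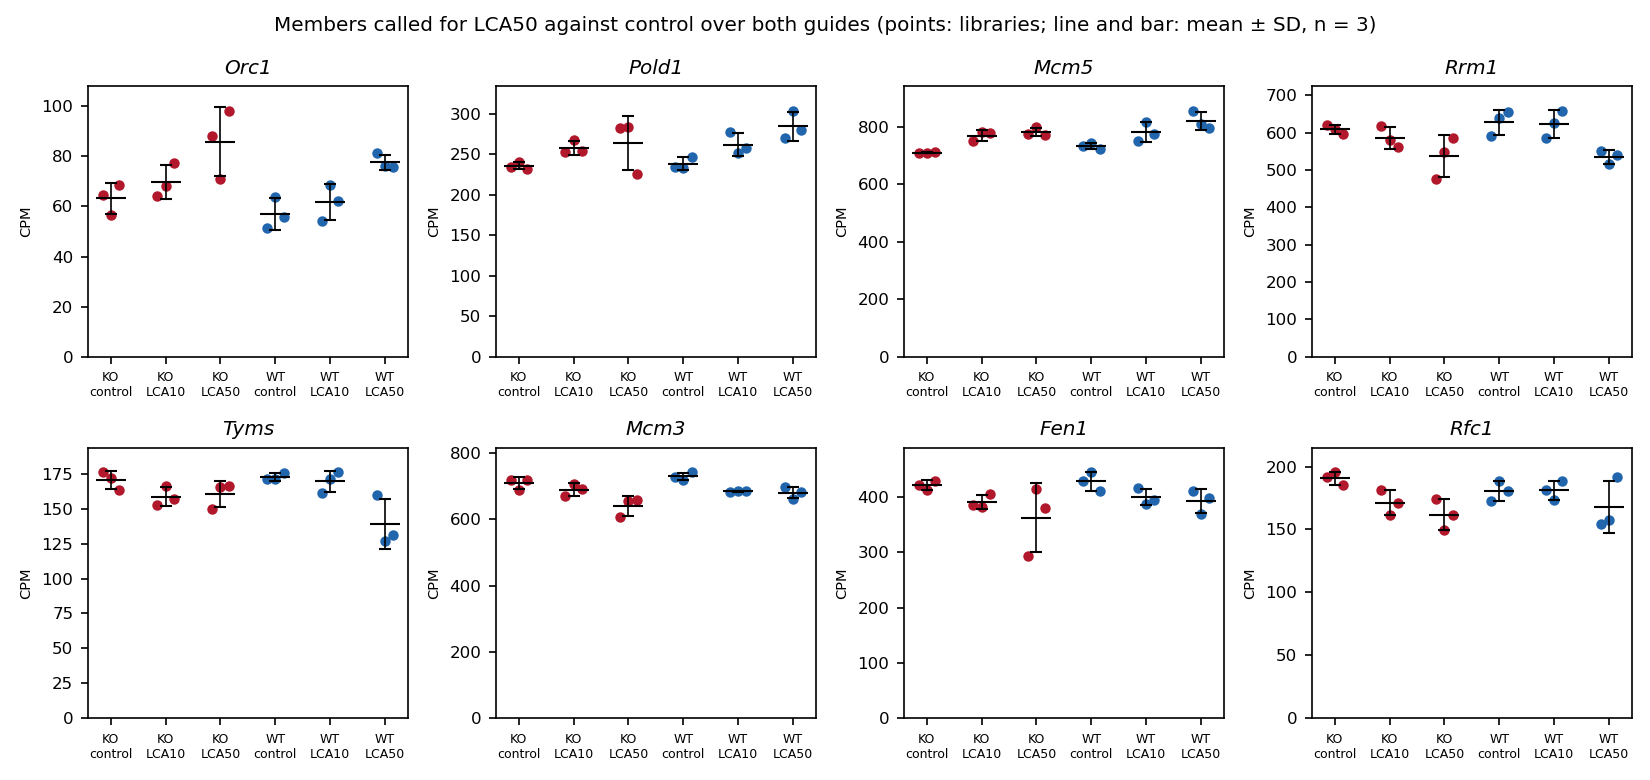
CPM per library (points) with the mean and SD of each group of 3 for the 8 genes that passed for LCA50 against control over both guides; axes start at 0. Orc1, Pold1 and Mcm5 sit higher and Rrm1, Tyms, Mcm3, Fen1 and Rfc1 lower at LCA50, with KO LCA50 library 1 lowest for Fen1 at 294 CPM.

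The helicase genes were among the most abundant of the set. On a scale of CPM per kilobase of exon, Mcm6 averaged 208, Mcm5 192, Mcm3 184, Mcm4 131, Mcm7 97.4 and Mcm2 90.1. Mcm5, at chr8:75109569-75128439 on the plus strand, rose at LCA50. It had 708, 711 and 713 CPM in KO control, 750, 783 and 778 CPM at KO LCA10 and 777, 799 and 771 CPM at KO LCA50. It had 733, 743 and 722 CPM in WT control, 752, 818 and 776 CPM at WT LCA10 and 857, 809 and 796 CPM at WT LCA50. Every LCA10 and LCA50 library lay above every control library. The log2 fold change of LCA50 was 0.15 ± 0.04 averaged over guides (adjusted p = 0.00885), 0.14 ± 0.06 in KO (adjusted p = 0.166) and 0.16 ± 0.06 in WT (adjusted p = 0.0724). Without the filter on low counts the averaged adjusted p was 0.0753.

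Mcm3, at chr1:20802968-20820312 on the minus strand, went the other way. It had 720, 689 and 719 CPM in KO control, 670, 708 and 692 CPM at KO LCA10 and 606, 657 and 657 CPM at KO LCA50. It had 727, 720 and 742 CPM in WT control, 682, 685 and 686 CPM at WT LCA10 and 698, 662 and 682 CPM at WT LCA50. The LCA50 libraries lay below the control libraries of their own guide in KO and in WT. The averaged log2 fold change was -0.12 ± 0.04 (adjusted p = 0.0341), with -0.15 ± 0.06 in KO (adjusted p = 0.134) and -0.10 ± 0.06 in WT (adjusted p = 0.32). The averaged call was lost without WT control library 3, KO control library 1 or 3, WT LCA50 library 2 or 3, or KO LCA50 library 1. Mcm2, Mcm4, Mcm6 and Mcm7 did not pass, with averaged log2 fold changes of 0.02 ± 0.05, -0.08 ± 0.05, -0.06 ± 0.04 and -0.09 ± 0.05.

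The 6 subunits form 1 ring of fixed make-up, so each was also set against the mean of the 6 in the same library, as log2 counts per kilobase. This ratio does not depend on library size. The share of Mcm5 stepped up with dose: its mean was 0.33 in control, 0.42 at LCA10 and 0.51 at LCA50 in KO, and 0.34, 0.44 and 0.52 at the same doses in WT. In KO the 3 control libraries ran from 0.31 to 0.34, the LCA10 libraries from 0.41 to 0.43 and the LCA50 libraries from 0.47 to 0.56. In WT these ranges were 0.31 to 0.37, 0.43 to 0.47 and 0.49 to 0.54. No library overlapped a library of another dose in the same guide. Against control, the LCA50 difference was 0.19 in KO and 0.18 in WT for Mcm5, and -0.10 in KO and -0.09 in WT for Mcm3, whose libraries also did not overlap. For Mcm2, Mcm4, Mcm6 and Mcm7 the libraries overlapped in at least 1 guide, with differences between -0.07 and 0.08. A ratio among 6 genes shows unequal change, and these values are given with no test.

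**Figure D4:**
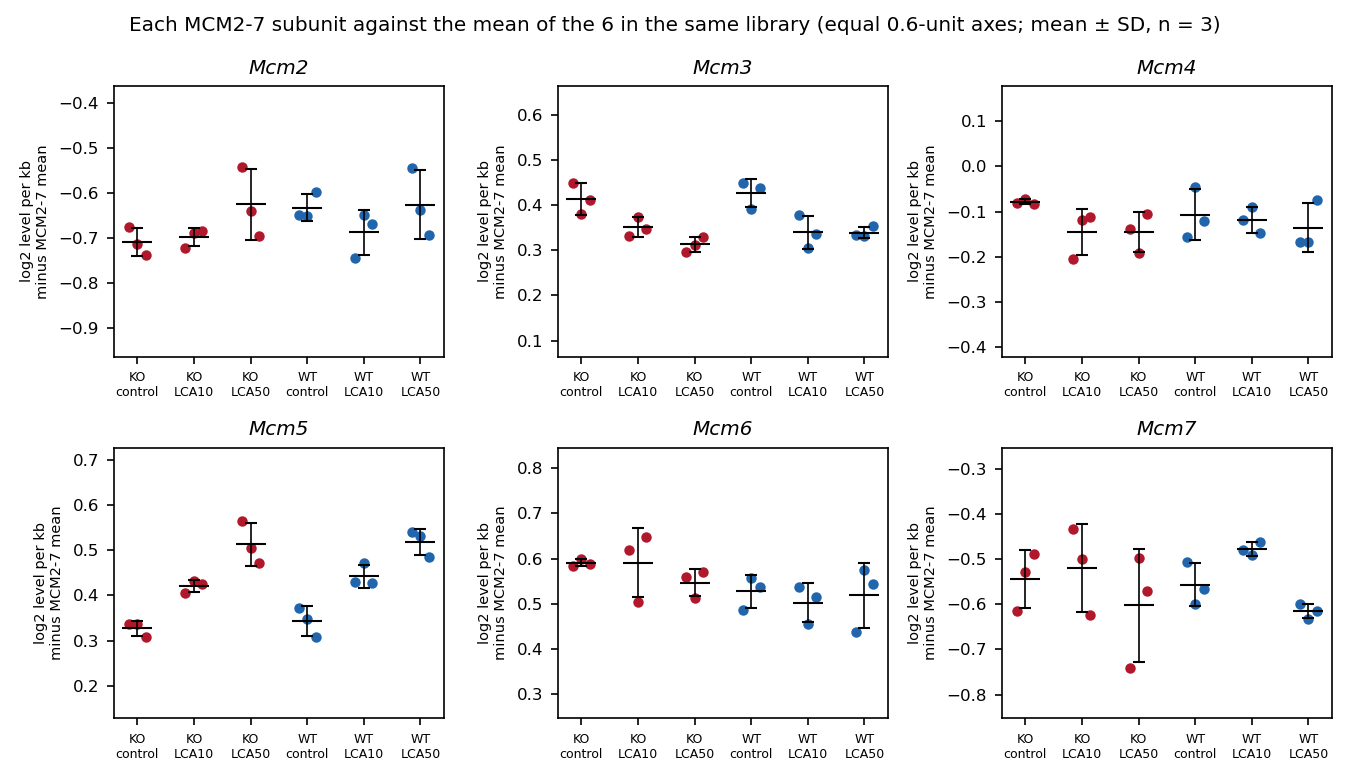
Level of each helicase subunit relative to the mean of the 6 in the same library (log2 per kilobase), per library (points) with mean and SD of 3, on axes of equal span. Mcm5 has means of 0.33, 0.42 and 0.51 over the doses in KO and 0.34, 0.44 and 0.52 in WT; Mcm3 is lower at LCA50 than in control in both guides.

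None of the 6 genes that turn the loaded ring into a moving helicase passed in any LCA50 comparison. Cdc45, which joins the ring at origin firing, gave log2 fold changes of 0.11 ± 0.09 in KO and 0.07 ± 0.09 in WT, and Mcm10, an activator of the ring, 0.01 ± 0.09 in KO and 0.15 ± 0.09 in WT. The GINS subunits had few counts and wide errors, with means over all libraries of 31.2 CPM for Gins1 and 47.5 CPM for Gins3. Averaged over guides, Gins1, Gins2, Gins3 and Gins4 gave -0.09 ± 0.11, -0.09 ± 0.09, -0.21 ± 0.11 and -0.14 ± 0.09. The gene Gse1, on the other strand, covers 2758 bases of the Gins2 exons, and whether counting used strand is unknown. Gins3 had 39.3, 40.8 and 50.9 CPM in KO LCA50 and 51.0, 50.9 and 54.1 CPM in KO control. In WT it had 32.8, 44.8 and 55.3 CPM at LCA50 and 42.7, 54.3 and 51.6 CPM in control, so the WT groups overlapped.

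Among the polymerase and primase genes Pold1 passed. It encodes the catalytic subunit of DNA polymerase delta, which copies the lagging strand, and lies at chr7:44532746-44548849 on the minus strand. KO libraries had 235, 241 and 232 CPM in control, 253, 268 and 254 CPM at LCA10 and 283, 284 and 226 CPM at LCA50. WT libraries had 235, 233 and 247 CPM in control, 278, 251 and 257 CPM at LCA10 and 270, 304 and 280 CPM at LCA50. The WT groups did not overlap, while KO LCA50 library 3 lay below all 3 KO control libraries. The log2 fold change was 0.21 ± 0.06 averaged over guides (adjusted p = 0.00753), 0.16 ± 0.08 in KO (adjusted p = 0.255) and 0.26 ± 0.08 in WT (adjusted p = 0.0351). The averaged call held in all 25 other settings. The WT call held in 13 of them, and was lost without any 1 WT control library, any 1 KO control library, WT LCA10 library 2 or 3, or WT LCA50 library 2 or 3. The catalytic subunits of polymerases alpha (Pola1) and epsilon (Pole) gave averaged values of -0.11 ± 0.07 and 0.01 ± 0.08, and the primase subunits Prim1 and Prim2 gave -0.10 ± 0.07 and 0.07 ± 0.09. None of these 4 passed.

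The clamp gene Pcna did not pass. It had 115, 144 and 130 CPM in KO LCA50 against 140, 134 and 130 CPM in KO control, and 125, 123 and 124 CPM in WT LCA50 against 151, 133 and 136 CPM in WT control. The WT groups did not overlap, and the log2 fold change there was -0.18 ± 0.08 (adjusted p = 0.211). Reads of Pcna could be shared with the pseudogenes Pcna-ps1 and Pcna-ps2. Of the 5 subunits of replication factor C, which opens the clamp and loads it, Rfc1 fell. Rfc1, the large subunit, at chr5:65261850-65335670 on the minus strand, had 174, 150 and 162 CPM in KO LCA50 and 192, 196 and 185 CPM in KO control. In WT it had 155, 158 and 192 CPM at LCA50 and 173, 189 and 180 CPM in control, and these groups overlapped. Its averaged log2 fold change was -0.17 ± 0.06 (adjusted p = 0.0422), with -0.24 ± 0.08 in KO (adjusted p = 0.0832) and -0.10 ± 0.08 in WT (adjusted p = 0.502). The averaged call was lost without WT control library 2 or 3, KO control library 1 or 2, WT LCA50 library 1 or 2, or KO LCA50 library 2 or 3. The small subunits Rfc2, Rfc3, Rfc4 and Rfc5 gave -0.04 ± 0.05, 0.03 ± 0.07, -0.13 ± 0.08 and -0.02 ± 0.06.

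Fen1, the flap endonuclease that trims Okazaki fragments, fell in the averaged comparison. It lies at chr19:10199132-10204169 on the minus strand, where the antisense gene Gm10143 covers 1909 bases of its exons, and whether counting used strand is unknown. It had 294, 415 and 381 CPM in KO LCA50 and 423, 413 and 430 CPM in KO control, and 410, 369 and 399 CPM in WT LCA50 and 430, 445 and 411 CPM in WT control. The averaged log2 fold change was -0.17 ± 0.06 (adjusted p = 0.0366). Without KO LCA50 library 1, the lowest library, it was -0.11 ± 0.05 (adjusted p = 0.117). The call was also lost without WT control library 1 or 2, any 1 KO control library, or WT LCA50 library 2 or 3. Lig1, the ligase that seals the trimmed fragments, gave -0.04 ± 0.05.

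Of the 3 genes of deoxynucleotide supply, 2 fell. Rrm1, the large regulatory and catalytic subunit of ribonucleotide reductase, lies at chr7:102441695-102469771 on the plus strand. KO libraries had 621, 610 and 597 CPM in control, 617, 580 and 562 CPM at LCA10 and 476, 549 and 587 CPM at LCA50. WT libraries had 591, 638 and 656 CPM in control, 587, 625 and 659 CPM at LCA10 and 552, 516 and 542 CPM at LCA50. All 6 LCA50 libraries lay below all 6 control libraries. The log2 fold change was -0.20 ± 0.05 averaged over guides (adjusted p = 0.00343), -0.18 ± 0.07 in KO (adjusted p = 0.128) and -0.23 ± 0.07 in WT (adjusted p = 0.0355). The averaged call held in all 25 other settings, and the WT call was lost without WT control library 2 or 3 or WT LCA50 library 2 or 3. Rrm2, the small subunit of the same enzyme and the most abundant of the 35 per kilobase (315 CPM per kilobase), gave 0.02 ± 0.06 in KO and -0.07 ± 0.06 in WT, and did not pass.

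Tyms, thymidylate synthase, lies at chr5:30058202-30073617 on the minus strand. KO libraries had 176, 172 and 164 CPM in control, 153, 166 and 157 CPM at LCA10 and 150, 165 and 166 CPM at LCA50. WT libraries had 171, 171 and 176 CPM in control, 161, 171 and 176 CPM at LCA10 and 160, 127 and 131 CPM at LCA50. The WT groups of LCA50 and control did not overlap, with libraries 2 and 3 of WT LCA50 the lowest of all 18, while the KO groups overlapped. The log2 fold change was -0.20 ± 0.06 averaged over guides (adjusted p = 0.0188), -0.08 ± 0.08 in KO (adjusted p = 0.636) and -0.31 ± 0.08 in WT (adjusted p = 0.0164). The difference between the guides in this response was 0.23 ± 0.12 (adjusted p = 0.806), so it was not shown to differ. The averaged call was lost without WT LCA50 library 2 or 3, and the WT call without either of these or WT control library 3. Reads could be shared with the pseudogene Tyms-ps.

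Uhrf1, which carries DNA methylation to the new strand, and the cyclin E genes, whose products drive entry into S phase, did not pass. Uhrf1 gave 0.08 ± 0.07 in KO and 0.05 ± 0.07 in WT. Ccne1 gave -0.17 ± 0.09 in KO and -0.04 ± 0.09 in WT, and Ccne2 gave -0.15 ± 0.12 in KO and -0.18 ± 0.12 in WT.

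At 10 µM LCA none of the 35 passed. The background there was low: 0.326% of all genes tested passed in KO, 0.386% in WT and 1.82% averaged over guides. At an unadjusted p under 0.05 there were 1 of the 35 in KO, 0 in WT and 3 averaged, and DESeq2 called none in any of these. The share of all genes tested under that unadjusted cut was not counted. The lowest averaged adjusted p was that of Mcm5, with a log2 fold change of 0.11 ± 0.04 (adjusted p = 0.252). All 35 intervals lay within 1.5-fold in KO and in WT. Between the doses, LCA50 against LCA10 called none of the 35 in KO, where 1.38% of all genes tested passed, and none in WT, where 2.27% passed. At an unadjusted p under 0.05 there were 2 in KO and 4 in WT, again without a count over all genes tested. DESeq2 called none in KO and Tyms in WT. Group means stepped up over control, LCA10 and LCA50 in both guides for 3 of the 35 (Orc1, Mcm5 and Pold1), where 9.65% of all genes tested did so. They stepped down in both guides for 7 (Mcm3, Mcm4, Gins4, Prim1, Fen1, Rrm1 and Ccne2), where 10.1% of all genes tested did so.

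KO and WT cells had closely similar levels of all 35 genes. None passed for KO against WT in control, at LCA10 or at LCA50, where 0.627%, 0.661% and 1.94% of all genes tested passed, and none over all treatments, where 5.15% passed. At an unadjusted p under 0.05 there were 0, 1 and 2 in those 3 comparisons and 2 over all treatments, and DESeq2 called none. The share of all genes tested under the unadjusted cut was not counted here either. The 95% intervals over all treatments lay between 0.832-fold and 1.23-fold for all 35, so within 1.25-fold. The highest value was that of Orc1, at 0.16 ± 0.07 (adjusted p = 0.249), and the lowest that of Pola1, at -0.14 ± 0.06 (adjusted p = 0.206). Pola1 had 88.0, 89.3 and 93.3 CPM in KO LCA50 and 101, 104 and 117 CPM in WT LCA50, without overlap at that dose. It had 99.6, 106 and 99.2 CPM in KO control and 116, 126 and 90.4 CPM in WT control, which overlapped. Tyms was called higher in KO at LCA50 without WT LCA50 library 1, and no other removal of 1 library gave a call for KO against WT.

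Of 85 other genes of replication and S phase entry, 84 were tested. At LCA50, 3 were called higher and 3 lower in KO cells, and 2 higher and 5 lower in WT cells; averaged over guides 10 were called higher and 7 lower. These are 7.14% in KO, 8.33% in WT and 20.2% averaged, against 6.35%, 8.58% and 16.5% of all genes tested, so the shares lie near the background. Among 13 further genes of nucleotide supply, 2 passed in KO and 3 in WT, all lower, where 3.42% of all genes tested were called lower in KO and 4.93% in WT. Samhd1, which breaks down deoxynucleotides, had 323, 384 and 417 CPM in KO LCA50 against 488, 505 and 472 CPM in KO control. In WT it had 401, 376 and 371 CPM at LCA50 against 505, 528 and 469 CPM in control, and in both guides the groups did not overlap. Its log2 fold change was -0.38 ± 0.08 in KO (adjusted p = 0.00205) and -0.39 ± 0.08 in WT (adjusted p = 0.00124), called in all 25 other settings in each. Dck, the kinase that salvages deoxycytidine, had 101, 110 and 114 CPM in KO LCA50 against 137, 144 and 144 CPM in KO control, and 108, 117 and 118 CPM in WT LCA50 against 137, 153 and 148 CPM in WT control. Its log2 fold change was -0.38 ± 0.09 in KO (adjusted p = 0.0046) and -0.35 ± 0.09 in WT (adjusted p = 0.00724). Dut, which removes dUTP, passed in WT at -0.25 ± 0.08 (adjusted p = 0.0425). This call was lost without any 1 WT control library or WT LCA50 library 2 or 3. The response of Dut in KO minus that in WT was 0.23 ± 0.11 (adjusted p = 0.795), so the guides were not shown to differ. Samhd1 and Dck fell by more than any of the 35 genes in either guide.

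Of 26 tested genes of S phase entry, 3 were higher and 1 lower in KO, and 2 higher and 2 lower in WT. Of all genes tested, 2.93% were called higher and 3.42% lower in KO, and 3.66% higher and 4.93% lower in WT. Cdk2, the kinase partner of cyclin E, had 97.5, 120 and 115 CPM in KO LCA50 against 133, 139 and 136 CPM in KO control. In WT it had 103, 126 and 120 CPM at LCA50 against 155, 160 and 148 CPM in control. Its log2 fold change was -0.29 ± 0.09 in KO (adjusted p = 0.0445) and -0.41 ± 0.09 in WT (adjusted p = 0.00296). The KO call held in 13 of 25 other settings and was lost without any 1 KO control library, KO LCA50 library 1 or 3, KO LCA10 library 2, WT control library 3, or WT LCA10 library 2 or 3. Cdk6, a kinase of the D cyclins, rose by 0.46 ± 0.13 in KO (adjusted p = 0.0395, called in 14 of 25 other settings) and by 0.62 ± 0.13 in WT (adjusted p = 0.00474). The KO call was lost without KO LCA50 library 1, any 1 KO control library, KO LCA10 library 1 or 3, or WT control library 1 or 2. Ccnd3, cyclin D3, rose by 0.31 ± 0.07 in KO (adjusted p = 0.00286) and by 0.21 ± 0.07 in WT (adjusted p = 0.046). The WT call held in 7 of 25 other settings, and of the single libraries only KO LCA10 library 3 and KO LCA50 libraries 1 and 3 could be left out without losing it. Ccnd2, cyclin D2, rose by 0.30 ± 0.08 in KO (adjusted p = 0.0147), a call lost without KO LCA50 library 1 or KO control library 1 or 2. Averaged over guides it rose by 0.25 (adjusted p = 0.00142). Its response in KO minus that in WT was 0.10 ± 0.11 (adjusted p = 0.907), so here too no difference between the guides was shown. Cdkn2d, an inhibitor of the cyclin D kinases, passed in WT at -0.46 ± 0.11 (adjusted p = 0.00477), a call lost without WT LCA50 library 2 or 3. Averaged over guides it fell by -0.33 (adjusted p = 0.00165). Its response in KO minus that in WT was 0.25 ± 0.15 (adjusted p = 0.816), so the guides were not shown to differ. The averaged calls of Cdk2, Cdk6, Ccnd3, Ccnd2 and Cdkn2d held in all 25 other settings. With the receptor sum as a covariate, the WT calls of Dck, Dut, Cdk2, Cdk6, Ccnd3 and Cdkn2d were lost. In WT that sum did not overlap between LCA50 and control.

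In KO against WT over all treatments, 1 of the 84 was higher and 1 lower, where 5.15% of all genes tested passed in either direction. Cdkn1a, the p53 target p21 that inhibits Cdk2, had 222, 224 and 210 CPM in KO control and 162, 129 and 156 CPM in WT control. At LCA10 it had 257, 246 and 209 CPM in KO and 154, 168 and 161 CPM in WT, and at LCA50 505, 302 and 241 CPM in KO and 186, 222 and 184 CPM in WT. KO lay above WT at every dose without overlap, and KO LCA50 library 1 was the highest. The log2 fold change was 0.65 ± 0.12 (adjusted p = 0.00526), called in all 24 other settings. Cdkn1a was also called higher at LCA50 than in control averaged over guides, at 0.54 (adjusted p = 0.0235). That call held in 20 of 25 other settings, and in each guide the LCA50 libraries lay above the control libraries. E2f2, an activating E2F factor, was lower in KO at -0.23 ± 0.06 (adjusted p = 0.0149). The other lists held no called gene within either guide or for KO against WT. Their most abundant genes gave, for LCA50 in KO and in WT, -0.03 ± 0.07 and 0.09 ± 0.07 for Mcmbp, which binds the helicase, -0.11 ± 0.10 and -0.16 ± 0.10 for Gmnn, the inhibitor of Cdt1, and -0.08 ± 0.07 and 0.07 ± 0.07 for Topbp1, which acts in origin firing. They gave -0.06 ± 0.10 and -0.01 ± 0.10 for Dbf4, the partner of the firing kinase Cdc7, -0.13 ± 0.08 and -0.13 ± 0.08 for Rpa1, which binds single strands, and -0.08 ± 0.08 and -0.18 ± 0.08 for Tipin, a fork protection factor. For Dnmt1, the methyltransferase that works with Uhrf1, the values were -0.15 ± 0.07 and -0.03 ± 0.07, and for Slbp, which binds histone mRNA, -0.13 ± 0.07 and -0.17 ± 0.07.

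**Figure D5:**
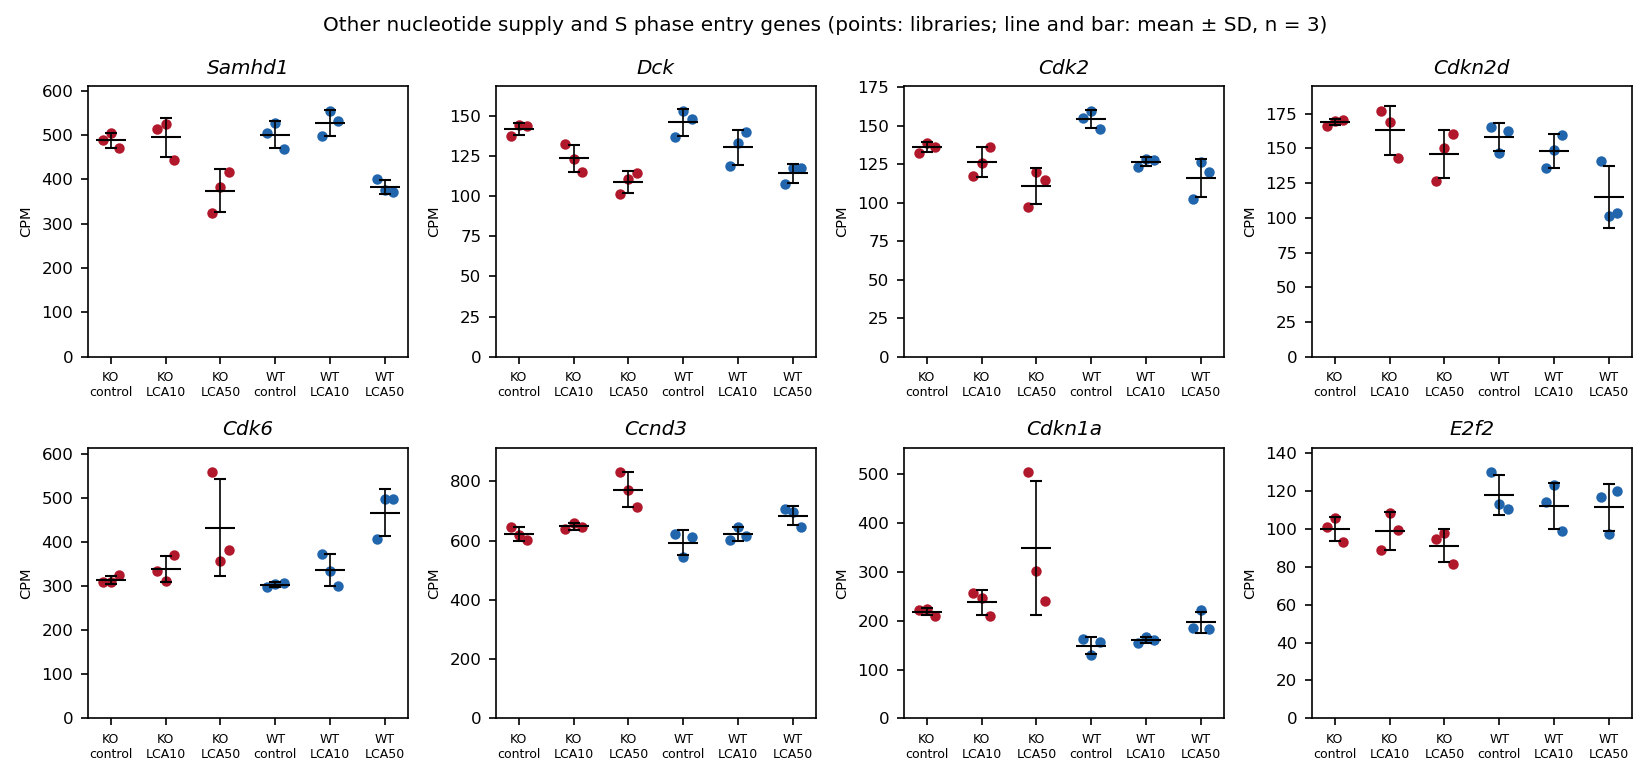
CPM per library (points) with the mean and SD of each group of 3 for 8 other genes of nucleotide supply and S phase entry; axes start at 0. Samhd1, Dck and Cdk2 are lower at LCA50 in both guides, and Cdk6 and Ccnd3 higher. Cdkn1a is higher in KO than in WT at each dose, up to 505 CPM in KO LCA50 library 1. It is also higher at LCA50 than in control in both guides.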

How the data were processed

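RNA was sequenced from 18 libraries in 6 groups. The deposited table holds raw counts for 24537 gene symbols, with no normalization in it. STAR, HOMER, DESeq2 and the builds GRCm38 and mm10 are named in the submitters' processing notes, without roles or versions; how reads were assigned, and with which strand setting, is not given there. The exons of 8 of the 35 genes overlap another gene of the table.

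The 35 genes, the other lists and the rules were chosen with earlier results of these data known. All 35 were described; of other lists, up to 3 called genes each way with the smallest p were named, or the 2 most abundant. Comparisons of KO and WT at LCA50 share no library, but those using the same controls do.

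Counts were fitted in edgeR 4.0.16 (R 4.3.3) with a mean for each group over all 18 libraries, TMM scaling, filterByExpr and a robust quasi-likelihood F test; p-values were adjusted by Benjamini-Hochberg over 11651 genes and called under 0.05. The biological coefficient of variation was 0.0984. Standard errors were derived from the F statistic, and CPM use TMM-scaled totals. The receptor sum is the exception: it uses raw library totals and only receptor genes that failed the filter. Coordinates and exon lengths come from the GRCm38 annotation and promoter windows from RefSeq. Simulated WT LCA50 data held 11434 genes, with 50 changed at each of 1.5-, 2-, 3- and 4-fold. The code recovered 33, 42, 50 and 48 of them, with 9 of 182 calls false. All differences of the 35 genes here were under 1.5-fold, so the simulation does not show how often changes of their size are called. Alternatives were DESeq2 1.42.0, its size factors in edgeR, no filter, a replicate block, the receptor sum as covariate, the compared groups alone, and libraries left out.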

Additional observations from a re-analysis of the deposited data

How the results depend on the processing

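Over 15705 recomputed gene results in 25 settings, 0 called values reversed, 153 calls were lost and 65 gained. These results cover the 35 genes and Samhd1, Dck, Dut, Cdk6, Ccnd3, Ccnd2, Cdk2, Cdkn2d, Cdkn1a and E2f2. The genes outside the 35 were included because they were called in these data. For LCA50 against control, KO called 1 of the 35, and 3 with DESeq2 (Orc1 and Mcm5 higher, Mcm3 lower), 2 with the receptor sum as covariate (Orc1 higher, Fen1 lower) and 0 with the compared groups alone. WT called 4, and 0 with the receptor sum, which in WT did not overlap between LCA50 and control. Averaged over guides 8 were called, and 5 with the receptor sum, 5 without KO LCA50 library 1 and WT LCA50 library 3 together, and 5 with the compared groups alone. For LCA50 against LCA10 in WT 0 were called, and 1 with DESeq2, 2 without a filter and 1 with the compared groups alone. Leaving out 1 library at a time gave 0 to 2 calls for LCA50 in KO, 0 to 4 in WT, 4 to 8 averaged over guides, 0 to 2 for LCA50 against LCA10 in WT, 0 to 1 for KO against WT at LCA50, and 0 to 0 in all other comparisons. These counts are given without the share of all genes called in the same setting. They do not show whether a shift was particular to the 35 genes. The cause of these shifts was not tested. The averaged calls of Orc1, Pold1 and Rrm1 held in 25 of 25 settings, Mcm5 in 24, Tyms in 21, Rfc1 in 16, Mcm3 in 15 and Fen1 in 14. No shared deviation was seen between libraries of the same number. Of 45 pairs, 0 correlated above 0.1 and 2 below -0.1, from -0.218 to 0.0881. With 3 libraries a group, these values do not show whether libraries of the same number share a mouse or culture. With the replicate block the calls were 1 for LCA50 in KO, 4 in WT, 8 averaged and 0 elsewhere. The fit with the compared groups alone was not run for KO against WT over all treatments, which uses every group.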
